A study of Mus musculus with 4 samples.

Results

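The 10 genes described here encode the core proteins of proteoglycans: the 4 syndecans (*Sdc1*, *Sdc2*, *Sdc3* and *Sdc4*), the glypicans *Gpc1* and *Gpc4*, perlecan (*Hspg2*), biglycan (*Bgn*), versican (*Vcan*) and serglycin (*Srgn*). They were selected by symbol from the 18598 genes of the deposited RNA-seq table, and all 10 were listed. The choice was made with their differences between the same 4 libraries already known, so these differences are given as a description and no p-value is printed for any of the 10 genes. They were part of the limma fit across all genes, and the number of them that it called is given beside the share of all genes, with nothing read from it.

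A proteoglycan is a core protein that carries long sulfated sugar chains, either heparan sulfate or chondroitin and dermatan sulfate. Syndecans span the plasma membrane and glypicans are tied to it by a lipid anchor, and through their heparan sulfate both hold growth factors and chemokines at the cell surface. Perlecan, biglycan and versican are secreted into the matrix, whereas serglycin stays mostly inside blood cells, where its chains pack proteases and amines into granules. In the bone marrow, proteoglycans are best known as a part of the matrix and of the niche that retains stem cells.

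The cells were LSK cells, sorted from the marrow of femur and tibia as lineage-, SCA-1+ and c-KIT+, the fraction that holds hematopoietic stem and progenitor cells. There were 2 libraries of *Bptf* cKO mice, labelled *Bptf* -/-, and 2 libraries of littermate controls, which the study's text gives as *Bptf* f/f. Each library pooled the cells of 5 C57BL/6 mice about 3 months old, taken 10 days after cre induction with pIpC, an interferon inducer given to both groups. In the cKO mice, cre was driven by the interferon-responsive *Mx1* promoter and removed exon 2 of *Bptf*, which encodes the largest subunit of the NURF chromatin remodeler. The *Bptf* f/f controls had the floxed alleles and no cre in the study's text, so the deletion and cre itself cannot be told apart. Values are normalized counts, that is, reads on a gene divided by 1 size factor per library, and the libraries held between 14091054 and 30134742 reads on listed genes.

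*Bptf* had 5520 and 5850 normalized counts in the *Bptf* f/f libraries and 3398 and 3320 in the *Bptf* cKO libraries, a log2 difference of -0.76 (standard error 0.090, limma adjusted p = 0.0439). *Kit*, which encodes c-KIT, lay between 13634 and 17051 normalized counts and *Ly6a*, which encodes SCA-1, between 726 and 1743, with overlapping groups for both. The replicate numbers differed in *Xist*, which had 1 and 5 reads in the replicate 1 libraries and 11310 and 8394 in the replicate 2 libraries. The summed level of 4 Y-linked genes was 5133 and 5052 normalized counts in replicate 1 and 1342 and 2528 in replicate 2 of *Bptf* f/f and *Bptf* cKO, so the replicate 2 libraries held RNA of both sexes. In these bulk libraries, fewer cells of a type and less RNA per cell cannot be told apart.

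*Sdc1*, *Sdc2* and *Bgn* were lower in both *Bptf* cKO libraries, with means at 14.9%, 16.6% and 8.78% of the *Bptf* f/f mean, and for each of them the gap between genotypes was larger than the gap between replicates. *Sdc3*, *Sdc4*, *Gpc1*, *Srgn* and *Vcan* had log2 differences between -0.37 and 0.47, and *Hspg2* had a higher mean in *Bptf* cKO. Across the whole table, *Bgn* ranked 20, *Sdc1* 58 and *Sdc2* 69 by size of decrease among the 14858 genes whose mean reached 10, and *Hspg2* ranked 189 by size of increase. *Gpc4* was below that mean and was not tested.

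The promoter-side sequences of *Sdc1* and *Bgn* are shown because these 2 genes had the lowest means in *Bptf* cKO relative to *Bptf* f/f among the tested proteoglycan genes, which is a description of the values that chose them. Both come from RefSeq on GRCm38.p6, plus strand, from 250 bases before the RefSeq start up to the first annotated exon base, with GC boxes (GGGCGG on either strand, overlaps counted) in capitals. The *Sdc1* stretch lies at chr12:8771146-8771322 and overlaps an exon of another gene, *Gm4755*. The *Bgn* stretch lies at chrX:73483351-73483600.
Sdc1: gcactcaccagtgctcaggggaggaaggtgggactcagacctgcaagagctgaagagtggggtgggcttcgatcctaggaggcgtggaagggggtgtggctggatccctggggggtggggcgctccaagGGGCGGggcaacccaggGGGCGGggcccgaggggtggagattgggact
Bgn: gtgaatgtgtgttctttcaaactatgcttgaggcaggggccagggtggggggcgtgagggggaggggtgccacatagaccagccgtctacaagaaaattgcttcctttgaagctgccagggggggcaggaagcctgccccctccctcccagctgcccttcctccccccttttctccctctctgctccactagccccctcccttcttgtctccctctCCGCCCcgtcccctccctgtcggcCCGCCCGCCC

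The 250 bases before the RefSeq start held 3 GC boxes in *Sdc1* and 3 in *Bgn*, the third of *Sdc1* lying past the stretch shown. GC boxes were also present before *Sdc3*, *Sdc4*, *Hspg2*, *Vcan* and *Gpc4*, with between 1 and 5 matches, and absent before both annotated starts of *Srgn*. Of all 32851 such windows, 32.7% held a GC box. On either strand, the AP1 motif (TGANTCA), present in 6.75% of all windows, and the E-box (CACGTG), present in 6.02%, had no match before any of the 8 proteoglycan genes with a window. The TATA box (TATAAA) and the MEIS motif (TGACAG), present in 12.4% and 15.9% of all windows, each matched only *Srgn* among them. The window of *Sdc2* and that of *Gpc1* were not analysed here.

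*Sdc1* (chr12:8771323-8793715, GRCm38, GENCODE vM21) encodes syndecan-1, known as CD138, the surface marker of plasma cells that is also made by epithelia and early B cells. It had 384 and 363 normalized counts in *Bptf* f/f and 52.0 and 59.3 in *Bptf* cKO replicates 1 and 2. Both *Bptf* cKO libraries were far below both controls, and replicates of a genotype lay close together. The means were 373 ± 14.5 and 55.6 ± 5.14 (SD, n = 2 libraries each), a log2 difference of -2.73 (standard error 0.21). The difference was -2.86 between the replicate 1 libraries and -2.60 between the replicate 2 libraries. The lowest library held 42 reads of the gene.

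Because *Sdc1* marks plasma cells, their other markers are given beside it. Of 7 markers 6 were listed, and their summed normalized counts lay at 2513 and 2922 in *Bptf* f/f and at 2801 and 3220 in *Bptf* cKO, mostly from *Xbp1*. None of the 6 passed in limma, with a lowest adjusted p of 0.627, and the plasma cell receptor gene *Tnfrsf17* was not among the listed genes. *Jchain*, the immunoglobulin joining chain, differed by replicate number, at 35.7 and 613 normalized counts in *Bptf* f/f and 85.8 and 899 in *Bptf* cKO. *Mzb1*, another marker of this list, went the other way by replicate number, at 387 and 122 in *Bptf* f/f and 231 and 126 in *Bptf* cKO. The 8 B cell markers summed to 9435 and 2373 in *Bptf* f/f and to 5244 and 3046 in *Bptf* cKO, with overlapping groups. The part of plasma and B cells in the difference of *Sdc1* was not tested.

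*Sdc2* (chr15:32920723-33034935) encodes syndecan-2, a syndecan of mesenchymal and endothelial cells. It had 93.8 and 98.4 normalized counts in *Bptf* f/f and 22.1 and 9.88 in *Bptf* cKO, so that the groups did not overlap and the *Bptf* cKO libraries differed from each other by more than the controls did. The means were 96.1 ± 3.26 and 16.0 ± 8.64 (SD, n = 2 each), a log2 difference of -2.61 (standard error 0.48), with -2.04 in replicate 1 and -3.19 in replicate 2. *Bptf* cKO replicate 2 rested on 7 reads, against at least 34 in each other library. Endothelial markers, 7 of 8 listed, summed to 1901 and 3221 normalized counts in *Bptf* f/f and to 1134 and 1927 in *Bptf* cKO. These sums came mostly from *Vwf*, and the groups overlapped. All 6 tested markers had a negative log2 difference, with a median of -0.55. For 1 of them, *Kdr*, both *Bptf* cKO libraries were below both controls, as for 23.8% of all tested genes. The part of endothelial cells in the difference of *Sdc2* was not tested. The defining endothelial gene *Cdh5* had between 3.10 and 9.70 normalized counts, and none of the 6 tested markers passed in limma (lowest adjusted p = 0.378).

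*Sdc3* (chr4:130792537-130826319) encodes syndecan-3, best known from the nervous system. Its levels were close together, with 523 and 552 normalized counts in *Bptf* f/f and 614 and 662 in *Bptf* cKO. Both *Bptf* cKO libraries were above both controls, by a log2 difference of 0.25 (standard error 0.13), with 0.23 in replicate 1 and 0.26 in replicate 2. Exons of *Sdc3* share 415 bases with *Gm26716* and 48 with *Gm12970*, both antisense and neither among the listed genes, and whether reads were counted by strand is not given in the sources used here.

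*Sdc4* (chr2:164424247-164443887) encodes syndecan-4, a widespread syndecan of focal adhesions. It had 474 and 170.5 normalized counts in *Bptf* f/f and 272 and 178 in *Bptf* cKO. The groups overlapped, since *Bptf* f/f replicate 1 was the highest and *Bptf* f/f replicate 2 the lowest of the 4 libraries. The log2 difference of -0.37 (standard error 0.52) was smaller than its error, and was -1.10 without *Bptf* f/f replicate 2 and 0.36 without *Bptf* f/f replicate 1. Monocyte and neutrophil markers, all 10 of them listed, spread the same way among the controls, with summed normalized counts of 72321 and 13851 in *Bptf* f/f and 47409 and 38894 in *Bptf* cKO. Their part in the spread of *Sdc4* was not tested.

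**Figure D1:**
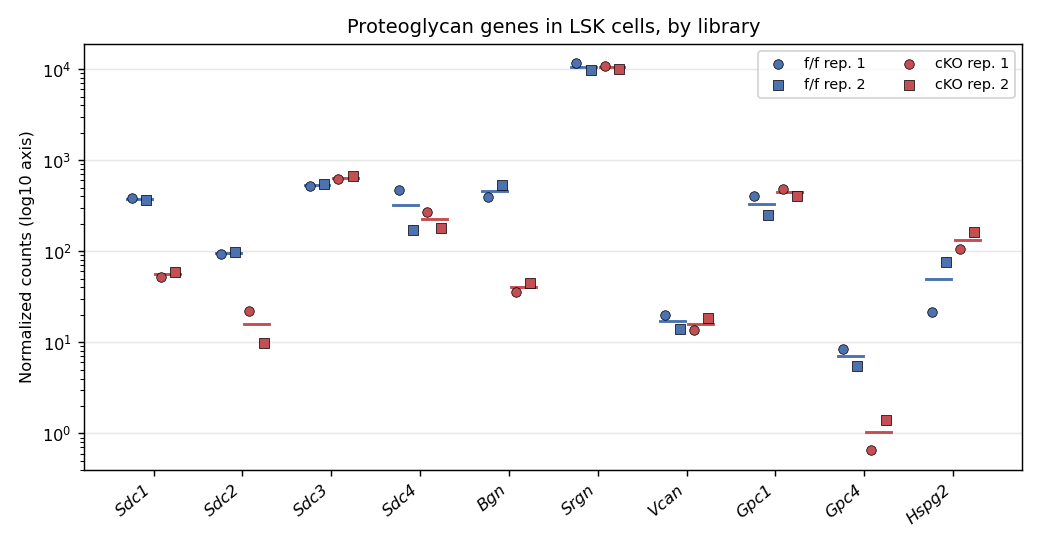
Normalized counts (log10 axis) of the 10 proteoglycan genes in each library, with *Bptf* f/f in blue, *Bptf* cKO in red, circles for replicate 1, squares for replicate 2 and a bar for each genotype mean. *Sdc1*, *Sdc2*, *Bgn* and *Gpc4* have both *Bptf* cKO libraries well below both *Bptf* f/f libraries, *Hspg2* has them above, and *Srgn* sits between 9739 and 11571 in all 4.

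Levels of different genes can be set side by side only per length, here as normalized counts per kb of the longest GENCODE transcript. On this scale the 4 syndecans summed to 446 and 323 in *Bptf* f/f and to 257 and 227 in *Bptf* cKO. *Sdc1* made up 27.2% and 35.6% of the sum in *Bptf* f/f and 6.41% and 8.27% in *Bptf* cKO. *Sdc3* made up 23.6% and 34.3% in *Bptf* f/f and 48.1% and 58.6% in *Bptf* cKO, of a smaller sum, while its own level per kb was 105 and 111 against 124 and 133. The share of *Sdc4* overlapped between genotypes, at 43.2% and 21.5% against 43.0% and 31.9%, and *Sdc2* never exceeded 8.63%. On average *Sdc1*, *Sdc3* and *Sdc4* took 31.4%, 29.0% and 32.3% of the sum in *Bptf* f/f and 7.34%, 53.4% and 37.5% in *Bptf* cKO.

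**Figure D2:**
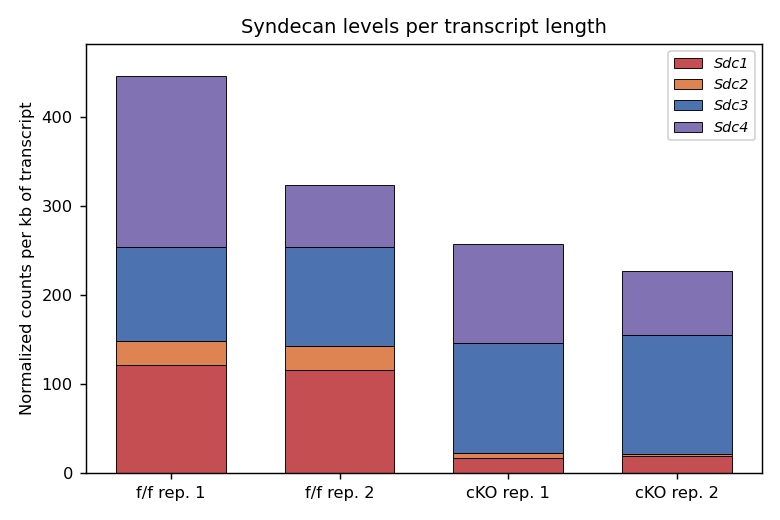
Normalized counts per kb of transcript of the 4 syndecan genes, stacked for each library. The red *Sdc1* part is 122 and 115 high in the *Bptf* f/f libraries and 16.5 and 18.8 in the *Bptf* cKO libraries, while the blue *Sdc3* part lies between 105 and 133 in all 4.

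*Bgn* (chrX:73483602-73495933) encodes biglycan, a small leucine-rich proteoglycan of bone and connective tissue matrix that also binds the toll-like receptors TLR2 and TLR4. It had the largest difference of the 10 genes, with 389 and 532 normalized counts in *Bptf* f/f and 35.7 and 45.2 in *Bptf* cKO. Both *Bptf* cKO libraries were below both controls by far more than the replicates differed. The means were 461 ± 101 and 40.4 ± 6.65 (SD, n = 2 each), a log2 difference of -3.47 (standard error 0.27), or an 11.4-fold lower mean. The difference was -3.41 in replicate 1 and -3.53 in replicate 2. *Bgn* is X-linked, and *Xist* had 0.775 and 3.25 normalized counts in the replicate 1 libraries and 15675 and 11843 in the replicate 2 libraries of *Bptf* f/f and *Bptf* cKO. The part of the mice's sex in the level of *Bgn* was not tested.

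Biglycan is mainly a product of stromal cells, so stromal markers are given beside it. Of 11 such markers 6 were listed, and *Dcn*, *Lum*, *Lepr*, *Col3a1* and *Col6a1*, which define marrow stroma, were not among the listed genes, which had at least 11 reads over the 4 libraries. *Col1a2*, a chain of type I collagen, had 76.0 and 99.8 normalized counts in *Bptf* f/f and 20.8 and 31.0 in *Bptf* cKO (log2 difference -1.74, standard error 0.38, limma adjusted p = 0.129). *Col1a1*, the other chain, had 17.1 and 22.2 against 9.75 and 12.7 (limma adjusted p = 0.545). The 6 listed markers summed to 2046 and 703 normalized counts in *Bptf* f/f and to 1635 and 878 in *Bptf* cKO, mostly from *Pdgfrb*, with overlapping groups. None of the 4 tested markers passed in limma, and their part in the difference of *Bgn* was not tested.

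*Srgn* (chr10:62493833-62527451) encodes serglycin and was by far the highest of the 10 genes, above 99.1% of listed genes in *Bptf* f/f LSK cells. It had 11571 and 9739 normalized counts in *Bptf* f/f and 10840.0 and 10146 in *Bptf* cKO. The groups overlapped, and the log2 difference was -0.018 (standard error 0.12). Mast cell and basophil markers, whose granules serglycin fills, were higher in the *Bptf* cKO libraries, with all 7 listed and sums of 1656 and 694 normalized counts in *Bptf* f/f and of 5811 and 20570.1 in *Bptf* cKO. *Cpa3*, the mast cell carboxypeptidase, had 855 and 244 against 3645 and 9868 (log2 difference 3.71, standard error 0.72, limma adjusted p = 0.104). For 6 of the 7 markers both *Bptf* cKO libraries were above both controls, as for 23.2% of all tested genes, and none passed in limma (lowest adjusted p = 0.0833). Whether these cells take part in the level of *Srgn* was not tested.

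*Vcan* (chr13:89655312-89742509) encodes versican, a large chondroitin sulfate proteoglycan made by monocytes and stroma. It was close to the low end of the tested genes, with 20.2 and 13.9 normalized counts in *Bptf* f/f and 13.6 and 18.3 in *Bptf* cKO. The groups overlapped, the lowest library held 10 reads, and the log2 difference of -0.075 was smaller than its standard error of 0.50, so that no difference was detectable at this depth.

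**Figure D3:**
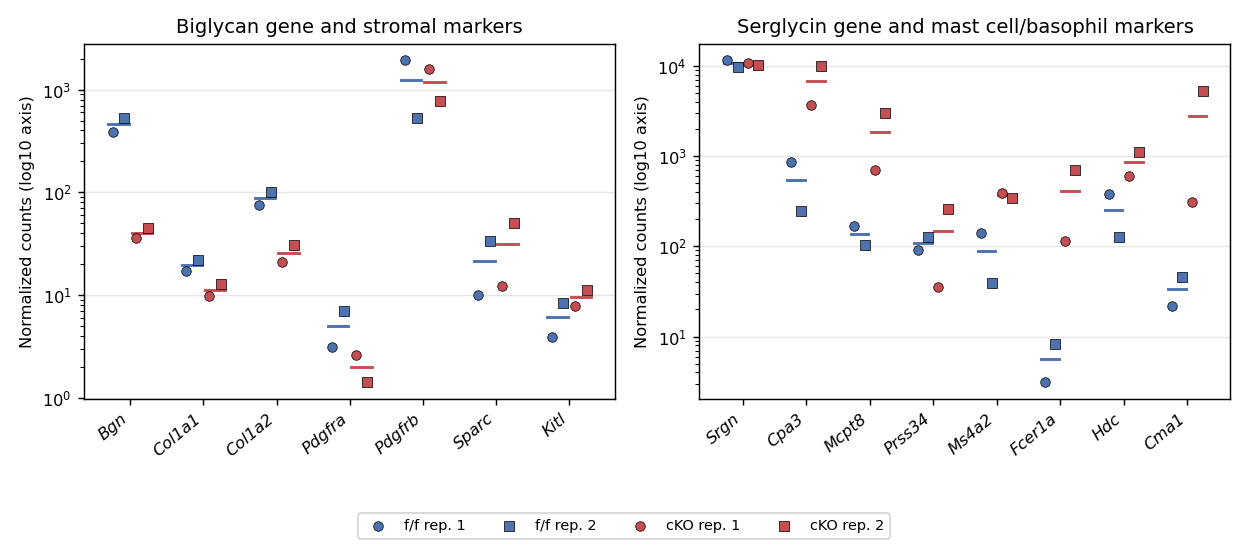
Normalized counts (log10 axis) by library of *Bgn* with the listed stromal markers (left) and of *Srgn* with mast cell and basophil markers (right), in the same colours and symbols, with a bar for each genotype mean. *Col1a1*, *Col1a2* and *Pdgfra* have, like *Bgn*, both red points below both blue points, while *Pdgfrb*, *Sparc* and *Kitl* overlap between genotypes. On the right *Srgn* is level, and each mast cell and basophil marker except *Prss34* is higher in both *Bptf* cKO libraries.

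*Gpc1* (chr1:92831645-92860779) encodes glypican-1. It had 405 and 251 normalized counts in *Bptf* f/f and 476 and 408 in *Bptf* cKO, so that both *Bptf* cKO libraries were above both controls, though 405 and 408 are nearly equal. The log2 difference was 0.47 (standard error 0.26), with 0.24 in replicate 1 and 0.70 in replicate 2. Exons of *Gpc1* share 977 bases with *Ankmy1* on the other strand, so reads of both genes may not have been told apart. *Ankmy1* had 5.43 and 1.39 normalized counts in *Bptf* f/f and 4.55 and 0 in *Bptf* cKO, and its part in the level of *Gpc1* was not tested.

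*Gpc4* (chrX:52053021-52165252), the X-linked gene of glypican-4, was the rarest of the 10 genes. It had 8.53 and 5.54 normalized counts in *Bptf* f/f and 0.650 and 1.41 in *Bptf* cKO. These values stand for 11 and 4 reads against 1 and 1 reads. The *Bptf* cKO mean was 14.6% of the *Bptf* f/f mean. The ratio of summed reads, scaled by library, was 11.9%, with an exact 95% interval of 1.32% to 51.3%. This interval covers counting error only, without the variation between libraries, and PCR copies, which are not independent molecules, may make it too narrow. It is a description and no test, since the gene was chosen with its difference known.

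*Hspg2* (chr4:137468769-137570630) encodes perlecan, the heparan sulfate proteoglycan of basement membranes. It had 21.7 and 76.2 normalized counts in *Bptf* f/f and 105 and 164 in *Bptf* cKO. Both *Bptf* cKO libraries were above both controls, but replicate 2 was also above replicate 1 in each genotype. The means were 49.0 ± 38.6 and 134 ± 41.7 (SD, n = 2 each), a log2 difference of 1.66 (standard error 0.64). Within replicates it was 2.22 and 1.09, and without *Bptf* f/f replicate 1 it was 0.77.

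Per kb of transcript, *Srgn* led in both genotypes, at 6169.7 in *Bptf* f/f and 6076 in *Bptf* cKO. In *Bptf* f/f it was followed by *Bgn* (173), *Sdc4* (131), *Sdc1* (118), *Sdc3* (108), *Gpc1* (78.5) and *Sdc2* (27.2), and *Hspg2*, *Gpc4* and *Vcan* lay between 1.37 and 3.45. The 2 libraries of *Sdc4* spanned 69.4 to 193 and so overlapped *Bgn*, *Sdc1*, *Sdc3* and *Gpc1*, and *Hspg2* overlapped *Gpc4* and *Vcan*. In *Bptf* cKO the order after *Srgn* was *Sdc3* (128), *Gpc1* (106), *Sdc4* (91.4), *Sdc1* (17.6), *Bgn* (15.2), *Hspg2* (9.46), *Sdc2* (4.53), *Vcan* (1.29) and *Gpc4* (0.389). There *Gpc1* overlapped *Sdc4* and *Sdc1* overlapped *Bgn*, and no other neighbours did.

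A gene was called when its limma adjusted p was under 0.05 and its fold change above 1.5. Of the 9 proteoglycan genes tested, 2 were called lower (*Sdc1* and *Bgn*) and 0 higher, where 0.37% of all tested genes were called lower and 0.37% higher. With each library left out in turn, the log2 difference lay between -2.82 and -2.63 for *Sdc1* and between -3.69 and -3.24 for *Bgn*. Not all of these fits called the 2 genes, and those without a *Bptf* cKO library called hardly any gene. Both *Bptf* cKO libraries were below both controls for 3 of the 9 genes and above them for 3, as for 23.8% and 23.2% of all tested genes. The median log2 difference of the 9 genes was -0.075, and that of all tested genes was 0.0010. Nothing is read from these counts, since the genes were chosen with this comparison known.

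**Figure D4:**
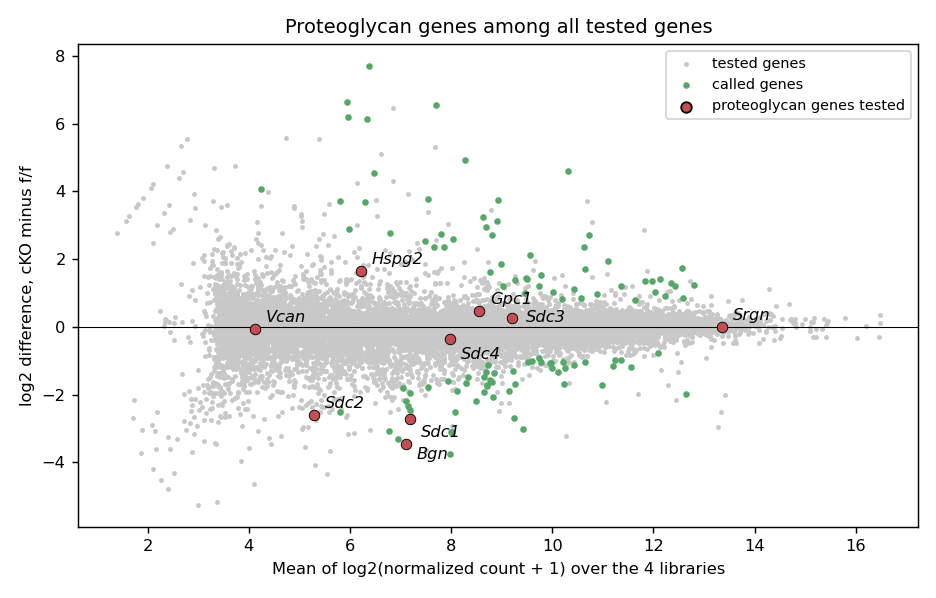
The log2 difference of *Bptf* cKO minus *Bptf* f/f against the mean of log2(normalized count + 1) over the 4 libraries, for all 14858 tested genes (grey), those called (green) and the 9 tested proteoglycan genes (red, of which *Sdc1* and *Bgn* were called). *Bgn*, *Sdc1* and *Sdc2* lie at -3.47, -2.73 and -2.61, *Hspg2* at 1.66, and the other 5 between -0.37 and 0.47.

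Erythroid markers were lower in the same libraries as *Sdc1*, *Sdc2* and *Bgn*. All 10 were listed, with sums of 2728 and 2040 normalized counts in *Bptf* f/f and of 493 and 601 in *Bptf* cKO. For 7 of the 9 tested markers both *Bptf* cKO libraries were below both controls, as for 23.8% of all tested genes, and 1, *Epor*, the erythropoietin receptor gene, fell in limma, with 77.3 and 69.1 normalized counts in *Bptf* cKO against 326 and 255 in the controls (log2 difference -1.96, standard error 0.24, adjusted p = 0.0443). The summed megakaryocyte markers, 7 of 8 listed, overlapped between genotypes, at 5919 and 3281 against 4593 and 3941, mostly from *Itga2b*. Of the 7, 6 had a negative and 1 a positive log2 difference, and none passed in limma (lowest adjusted p = 0.252). For 2 of the 7, *Pf4* and *Treml1*, both *Bptf* cKO libraries were below both controls, as for 23.8% of all tested genes. The 3 listed markers of T and NK cells summed to between 125 and 164, but did not differ in the same direction. *Klrb1c* had 20.2 and 29.1 normalized counts in *Bptf* f/f and 60.4 and 87.5 in *Bptf* cKO (log2 difference 1.55, limma adjusted p = 0.174). *Cd4* had 126 and 90.1 against 79.9 and 50.8 (-0.73, limma adjusted p = 0.407). *Trbc2* overlapped between genotypes, and none of the 3 passed in limma. The part of these cell types in the differences of *Sdc1*, *Sdc2* and *Bgn* was not tested.

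The genes whose levels over the 4 libraries were most like those of *Sdc1* and *Bgn*, by the Euclidean distance of log2 values centred on each gene's mean, are given as a description. For *Sdc1* they were *Mamld1*, *Kazn*, *Zfp820*, *Rgs11* and *Zfp970*, at distances of 0.22 to 0.40. For *Bgn* they were *H2-DMb1*, *Maged1*, *P3h3*, *Pcp4l1* and *Pkhd1l1*, at distances of 0.22 to 0.78. *H2-DMb1*, which encodes a chain of the peptide loading factor of MHC class II, was the nearest to *Bgn*, with 349.6 and 428 normalized counts in *Bptf* f/f and 32.5 and 45.2 in *Bptf* cKO. *P3h3*, a collagen prolyl hydroxylase gene, had 898 and 948 against 74.7 and 62.1.

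To place the core proteins among the genes that build, modify, cut and bind their chains, 9 lists with 163 symbols were compared, of which 116 were tested. Of these, 0 were called lower and 1 higher in limma, against 0.37% of all tested genes in each direction, and 2340 of the 14858 tested genes had an unadjusted p under 0.05. The median log2 difference over the 116 genes was 0.047. Both *Bptf* cKO libraries were below both controls for 25% of them and above for 31.9%, against 23.8% and 23.2% of all tested genes.

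The other core proteins, 15 of 38 tested, had a median of -0.22 and no call. *Nrp1*, a part-time proteoglycan that serves as coreceptor of VEGF and semaphorins, had 81.4 and 55.4 normalized counts in *Bptf* f/f and 278 and 511 in *Bptf* cKO (log2 difference 2.47, standard error 0.37, limma adjusted p = 0.0673). *Prg2*, the eosinophil major basic protein gene, had 70.5 and 477 against 25.3 and 15.5, with *Bptf* f/f replicate 2 far above the other libraries (log2 difference -3.15, standard error 0.91, limma adjusted p = 0.209).

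The enzymes that build the linkage sugar by which every chain is attached differed little between genotypes. All 7 listed genes were tested, none was called, and their log2 differences ran from -0.32 to 0.41. *B3galt6* and *B4galt7*, which add the galactoses of the linker, had the largest, at 0.41 and 0.37 (limma adjusted p = 0.351 and 0.408).

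Genes of heparan sulfate synthesis and modification had log2 differences from -0.15 to 2.20, and none of the 14 tested was called. Of these, 12 had a positive difference and 7 had both *Bptf* cKO libraries above both controls, where 23.2% of all tested genes did, and the median was 0.37. *Extl1*, a glycosyltransferase of the exostosin family, had 34.1 and 44.4 normalized counts in *Bptf* f/f and 101 and 109 in *Bptf* cKO (log2 difference 1.40, standard error 0.30, limma adjusted p = 0.128). *Hs6st2*, a 6-O-sulfotransferase, had 28.7 and 38.8 against 48.1 and 154 (1.34, standard error 0.60, adjusted p = 0.373). *Glce*, the epimerase that turns glucuronic into iduronic acid, was chosen after its values were seen, with 684 and 643 against 1265 and 1151 (0.86, standard error 0.12, adjusted p = 0.0582).

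Of the chondroitin and dermatan sulfate enzymes, 14 of 16 were tested and none was called. For 3 both *Bptf* cKO libraries were below and for 3 above both controls, where 23.8% and 23.2% of all tested genes were, and the median was 0.050. *Csgalnact1*, which starts the chondroitin chain, had 1208 and 1455 normalized counts in *Bptf* f/f and 812 and 1044 in *Bptf* cKO (log2 difference -0.53, standard error 0.17, limma adjusted p = 0.252). *Ust*, the uronyl 2-O-sulfotransferase, had a log2 difference of -0.58 that was smaller than its error of 0.68 (adjusted p = 0.749). *Chpf*, a chondroitin polymerizing factor chosen after its values were seen, had 59.7 and 65.1 against 21.4 and 22.6 (-1.46, standard error 0.34, adjusted p = 0.148).

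The supply of sugar nucleotides and of sulfate held the largest positive value. *Papss2*, which makes the sulfate donor PAPS, had 99.2 and 72.1 normalized counts in *Bptf* f/f and 344 and 732 in *Bptf* cKO (log2 difference 2.56, standard error 0.40, limma adjusted p = 0.0732). *Slc35d1*, a transporter of UDP-sugars, had 353 and 345 against 563 and 639 (0.78, standard error 0.14, adjusted p = 0.0957). The other 9 tested genes of the list, *Papss1* and *Ugdh* among them, lay between -0.34 and 0.15, and none of the 11 was called.

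Chain breakdown and shedding showed few large differences. *Hpse*, the heparanase gene, had 339 and 294 normalized counts in *Bptf* f/f and 181 and 155 in *Bptf* cKO (log2 difference -0.91, standard error 0.19, limma adjusted p = 0.127), and none of the 16 tested genes of breakdown was called. Among proteases and partners of syndecans, *Mmp2* had 433 and 219 against 104 and 94.5 (-1.63, standard error 0.36, adjusted p = 0.132) and *Mmp9* had 402 and 90.1 against 64.3 and 69.1 (-1.50, standard error 0.70, adjusted p = 0.390). *Adam10* and *Adam17*, the main sheddases of the cell surface, had log2 differences of 0.00046 and -0.091, and *Sdcbp*, which encodes the syndecan-binding adaptor syntenin, had 0.12. None of the 11 tested genes was called.

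Among the 9 receptors of biglycan and versican, all tested, none was called. *Tlr2* and *Tlr4* had log2 differences of -0.38 and 0.12 (limma adjusted p = 0.359 and 0.786), and *P2rx7*, an ATP-gated channel, had 0.76 (adjusted p = 0.480). *Selp*, the P-selectin gene, had 457 and 564 normalized counts in *Bptf* f/f and 384 and 1239 in *Bptf* cKO, with overlapping groups.

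Of the ligands that bind heparan sulfate and their receptors, 19 of 27 were tested, and *Vegfa*, the vascular endothelial growth factor gene, was the one gene called. It rose in *Bptf* cKO, where it had 1561 and 1401 normalized counts against 549.6 and 478 in *Bptf* f/f (log2 difference 1.53, standard error 0.13, limma adjusted p = 0.0226). The call needed both *Bptf* cKO libraries, and a fit with either of them left out called hardly any gene. *Thbs1*, thrombospondin-1, had 113 and 202 against 32.5 and 55.03 (-1.81, standard error 0.43, adjusted p = 0.148). The median of the list was -0.14, and 7 of its genes had both *Bptf* cKO libraries below and 4 above both controls, against 23.8% and 23.2% of all tested genes.

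**Figure D5:**
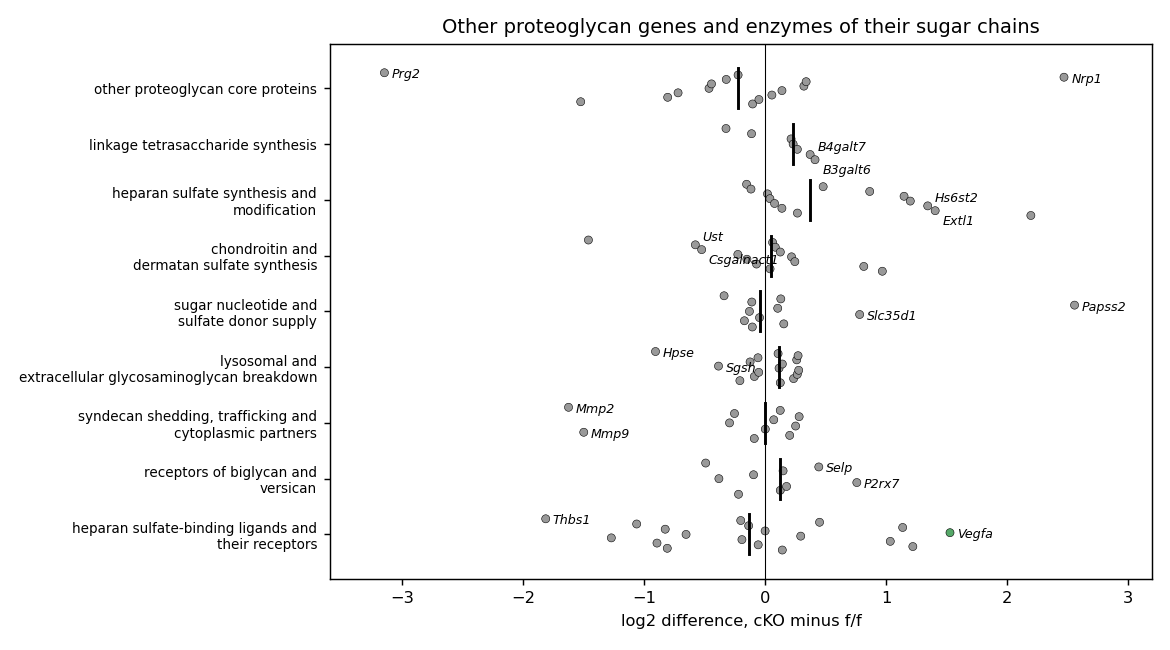
The log2 difference of *Bptf* cKO minus *Bptf* f/f for each tested gene of the 9 lists, with a black bar at the median of each list, labels on the genes named by the rule in the methods, and green for the one called gene, *Vegfa*. The medians run from -0.22 for other core proteins to 0.37 for heparan sulfate synthesis and modification.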

How the data were processed

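LSK RNA was measured in 2 *Bptf* cKO and 2 *Bptf* f/f libraries. The authors deposited a signal, gene counts divided by 1 size factor per library. The submitters' processing notes name HISAT2, featureCounts, DESeq2 and GRCm38 (mm10), without versions. The columns of the authors' own comparison (mean, fold change, error, statistic and p-values) were not used. Dividing each library by its lowest value above 0 gave whole numbers, within 0.01, for 100% of values, and these were taken as reads (between 14091054 and 30134742 per library). Low read numbers limit the precision of rare genes and the number of libraries that of all others. Nothing says whether replicates came from separate experiments beyond the separate pools of 5 mice, and the smallest p that an exact permutation of 2 against 2 libraries allows is 0.333 (two-sided).

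Genes with a mean of at least 10 (14858) were compared as log2(normalized count + 1), which understates the change of low genes, with limma 3.58.1 in R 4.3.3 (empirical Bayes with a trend, no covariate beside genotype, Benjamini-Hochberg over all tested genes, two-sided). Genes past an adjusted p of 0.05 and a fold of 1.5 were called. Alternatives were pseudocounts of 0.5 and 10, no filter, a mean of at least 50, recentring on library medians, no trend, the replicate number as a block, each library left out, and edgeR 4.0.16 and DESeq2 1.42.0 on the recovered reads. The fits were tested on simulated data. Gene positions and transcript lengths came from GENCODE vM21 and upstream sequences from RefSeq. Of the 163 pathway symbols, 2 are second names of listed genes.

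The proteoglycan genes and all lists were chosen with earlier results of these data known. Named are these genes, *Bptf*, *Kit*, *Ly6a* and *Xist*, each called list gene, and the 2 genes of each list with the largest absolute difference and a mean of at least 50. Also named are the 5 genes nearest to *Sdc1* and to *Bgn*, and some, not all, of the highest or called markers. Other named genes were chosen after their values were seen. A marker result is not reported here.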

Additional observations from a re-analysis of the deposited data

How the results depend on the processing

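Genes called lower and higher numbered 55 and 55 with limma as described, 438 and 252 with DESeq2 on the recovered reads, 845 and 454 with the replicate block, and 0 and 2 with limma without the trend. With each library left out in turn they ranged from 0 to 41 and from 1 to 76. The number of proteoglycan genes called lower, from which nothing is read since these genes were chosen with this comparison known, was 2, but 3 with DESeq2 and with the replicate block and 0 with limma without the trend. It ranged from 0 to 1 with a library left out. For genes called higher among them the replicate block gave 1, *Hspg2*, against 0 otherwise. Of the pathway genes, 0 were called lower, but 4 by DESeq2 and 9 with the replicate block, and between 0 and 1 with a library left out. Called higher was 1, *Vegfa*, but 8 by DESeq2, 12 with the replicate block, 0 without the trend, and between 0 and 2 with a library left out. The cause of these moves was not tested, beyond the fewer libraries of the last. Same-numbered libraries deviated together from their genotype means (r = 0.452 across 14858 genes, and 0.638 across the 10815 with a mean of at least 100). The labels do not say what a number shares. *Xist*, the Y-linked genes and depth differed by number, with 24875746 and 30134742 reads in replicate 1 and 14091054 and 14104526 in replicate 2. The main fit leaves this shared deviation in its error, and the block is given here only. The differences of *Sdc1*, *Bgn* and *Sdc2* kept their sign under all alternatives, between -2.82 and -2.55, between -3.69 and -3.21 and between -3.16 and -2.07 on the log2 scale, whereas *Sdc4* ranged from -1.10 to 0.36, *Srgn* from -0.14 to 0.11 and *Vcan* from -0.33 to 0.18. Recentring on library medians shifted the median log2 difference by 0.052. *Vcan* had no value with a mean of at least 50, and *Gpc4* one only without the filter. With 2 libraries per genotype and as few as 1 read of *Gpc4*, a difference that was not called may still exist.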
